A study of Mus musculus with 18 samples.

Results

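The phagocyte NADPH oxidase is followed here through 7 of its genes, Cybb, Cyba, Ncf1, Ncf4, Rac1, Rac2 and Hvcn1, in cultures of mouse bone marrow. The genes were chosen by name, and each was found by its versioned Ensembl gene ID and GENCODE M21 symbol among the 55536 gene IDs of the count files. All 7 passed the filter on low counts.

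The study cultured marrow of BALB/c mice for 4 days and sequenced poly(A) RNA from 18 libraries, in 6 groups of 3. Every culture held GM-CSF at 40 ng/mL, a cytokine that drives growth of myeloid cells. Marrow labelled Cysltr1-/-, which should lack cysteinyl leukotriene receptor 1, and wild-type (WT) marrow were each grown with 50% medium conditioned by EMT6, a mouse mammary carcinoma line, with 40 ng/mL IL-6, or with GM-CSF alone. A library came from marrow pooled from 3 mice. The labels do not say whether the libraries of a group came from separate pools, so p-values here measure the spread between libraries. The labels name no sorting step, and the libraries hold all cells of a culture.

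The oxidase makes superoxide. Its membrane part is a flavocytochrome of the catalytic subunit gp91phox (Cybb), which moves electrons from NADPH to oxygen, and its stabilising partner p22phox (Cyba). On stimulation the cytosolic subunits p47phox (Ncf1) and p40phox (Ncf4), together with a GTP-bound Rac GTPase, join this core. Rac1 is made in most cells, whereas Rac2 is largely restricted to blood cells and is the main Rac partner of the oxidase in neutrophils. The voltage-gated proton channel encoded by Hvcn1 carries protons out of the cytosol and so offsets the charge that the electrons move. In humans, loss of CYBB, CYBA or NCF1 causes chronic granulomatous disease, in which phagocytes fail to kill some microbes.

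Gene counts per library ran from 9583728 to 31989342, and all 6 EMT6 medium libraries but 1 were shallower than any other. Reads in no annotated feature averaged 50.2% of the total in labelled Cysltr1-/- and 36.2% in WT EMT6 medium libraries, against 14.2% to 19.5% in the other groups. Counts of Cysltr1 itself were not lower in the libraries labelled Cysltr1-/-: averaged over cultures its log2 fold change was 0.44 ± 0.05 (SE, adjusted p = 2.68e-10). The counts span the whole gene, and which part the allele removes is not given in the sources used here, so the genotype is called by its label throughout. The cultures carried myeloid transcripts as labelled. The 11 neutrophil markers summed to between 2075 and 11281 CPM (counts scaled to one common total of gene counts) across the libraries, and the 3 T and NK cell markers to at most 28.2 CPM.

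Of the 7 members, 3 had an entry in the RefSeq table of promoters (build GRCm38.p6, a C57BL/6J genome, whereas these mice were BALB/c). The 250 bases before their start sites are shown because Cybb had the widest genotype difference of the 7, wider than those of its partner Cyba and of Ncf1, as given below. All 3 lie on the minus strand and are printed 5′ to 3′ along the gene, at chrX:9469325-9469574 (Cybb), chr8:122432941-122433190 (Cyba) and chr5:134229626-134229875 (Ncf1). Capitals mark an interferon-type element, a pair of GAAA with any 2 bases between them, read on either strand (on the printed strand a pair of TTTC where it is reversed).
Cybb: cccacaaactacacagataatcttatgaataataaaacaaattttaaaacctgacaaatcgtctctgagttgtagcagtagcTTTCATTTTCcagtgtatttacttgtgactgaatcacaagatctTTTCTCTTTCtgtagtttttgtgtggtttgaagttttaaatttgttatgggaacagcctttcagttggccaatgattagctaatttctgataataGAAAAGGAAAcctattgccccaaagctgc
Cyba: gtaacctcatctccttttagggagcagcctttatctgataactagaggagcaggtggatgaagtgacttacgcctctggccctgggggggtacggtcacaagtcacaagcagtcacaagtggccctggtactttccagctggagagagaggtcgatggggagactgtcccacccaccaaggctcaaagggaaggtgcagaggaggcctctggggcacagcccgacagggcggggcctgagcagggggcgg
Ncf1: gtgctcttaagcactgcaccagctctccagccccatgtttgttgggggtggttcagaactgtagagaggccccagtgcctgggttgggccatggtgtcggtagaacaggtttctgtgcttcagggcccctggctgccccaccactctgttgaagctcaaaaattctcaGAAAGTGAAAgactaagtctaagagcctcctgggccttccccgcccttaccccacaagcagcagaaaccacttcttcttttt
The Cybb window held 3 such matches, beginning 168, 124 and 29 bases before the start site, Ncf1 held 1, beginning 82 bases before it, and Cyba held 0. Of the 32851 windows of this length in the table, 978 (2.98%) held at least 1 match and 4 held 3 or more. The other motifs searched on both strands were GGGCGG (GC box, in 32.7% of windows), CCAAT (33.8%), GAGGAA (PU.1-type, 23.3%) and an ETS and IRF composite, GGAA and GAAA with any 2 bases between them (2.30%). The GC box matched in Cyba at 2 places and in Ncf1 at 1, and CCAAT matched in Cybb at 1, while GAGGAA and the composite had no match in any of the 3 windows. Past the start site only Cybb was searched, for the composite alone, and the share of 2.30% does not cover that stretch. A composite match on the reverse strand lay just past the Cybb start site, at chrX:9469300-9469329, where it is in capitals. GAGGAA on the reverse strand also occurs in this stretch and is not marked.
Cybb start site: gctgctgtTTTCATTTCCtcatcagaagaa
In human myeloid cells the factors PU.1, IRF1 and IRF8 are known to act at the CYBB promoter. The matches describe these letters only.

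In GENCODE M21 (GRCm38, the same assembly as the mm10 build of the submitters' processing notes) Cybb (ENSMUSG00000015340.10) spans chrX:9435252-9487771 on the minus strand, so the start site above lies inside the annotated gene, whose longest transcript begins farther upstream. Cyba (ENSMUSG00000006519.11) lies at chr8:122424776-122432930, Ncf1 (ENSMUSG00000015950.13) at chr5:134220053-134229625, Rac1 (ENSMUSG00000001847.14) at chr5:143503634-143528036 and Rac2 (ENSMUSG00000033220.7) at chr15:78559167-78572783, all on the minus strand. Ncf4 (ENSMUSG00000071715.12) at chr15:78244801-78262580 and Hvcn1 (ENSMUSG00000064267.13) at chr5:122206804-122242297 are on the plus strand. Exons of 3 members overlap those of a gene on the other strand: Ncf1 shares 408 bases with Gtf2ird2, Rac1 shares 2309 with Daglb and Hvcn1 shares 1574 with Tctn1. The library kit is not stated to keep strand, so reads there cannot be told apart. The partners had at most 546, 854 and 455 counts in any library, and the members at least 3566, 2540 and 442, which leaves Hvcn1 the most uncertain.

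Levels below are in CPM, scaled by library size, and are given for replicates 1, 2 and 3. Fold changes come from an edgeR fit of all 18 libraries with TMM scaling, as log2 values ± SE, and a gene is called when its adjusted p over the 28334 genes tested is under 0.05. TMM and library size place the EMT6 medium libraries differently: library size raised the median log2 fold change of all genes, EMT6 medium over GM-CSF, by 0.61 in labelled Cysltr1-/- and 0.49 in WT cultures relative to TMM, and the genotype contrast by 0.24 with EMT6 medium, 0.14 with IL-6 and 0.12 with GM-CSF alone.

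**Figure D1:**
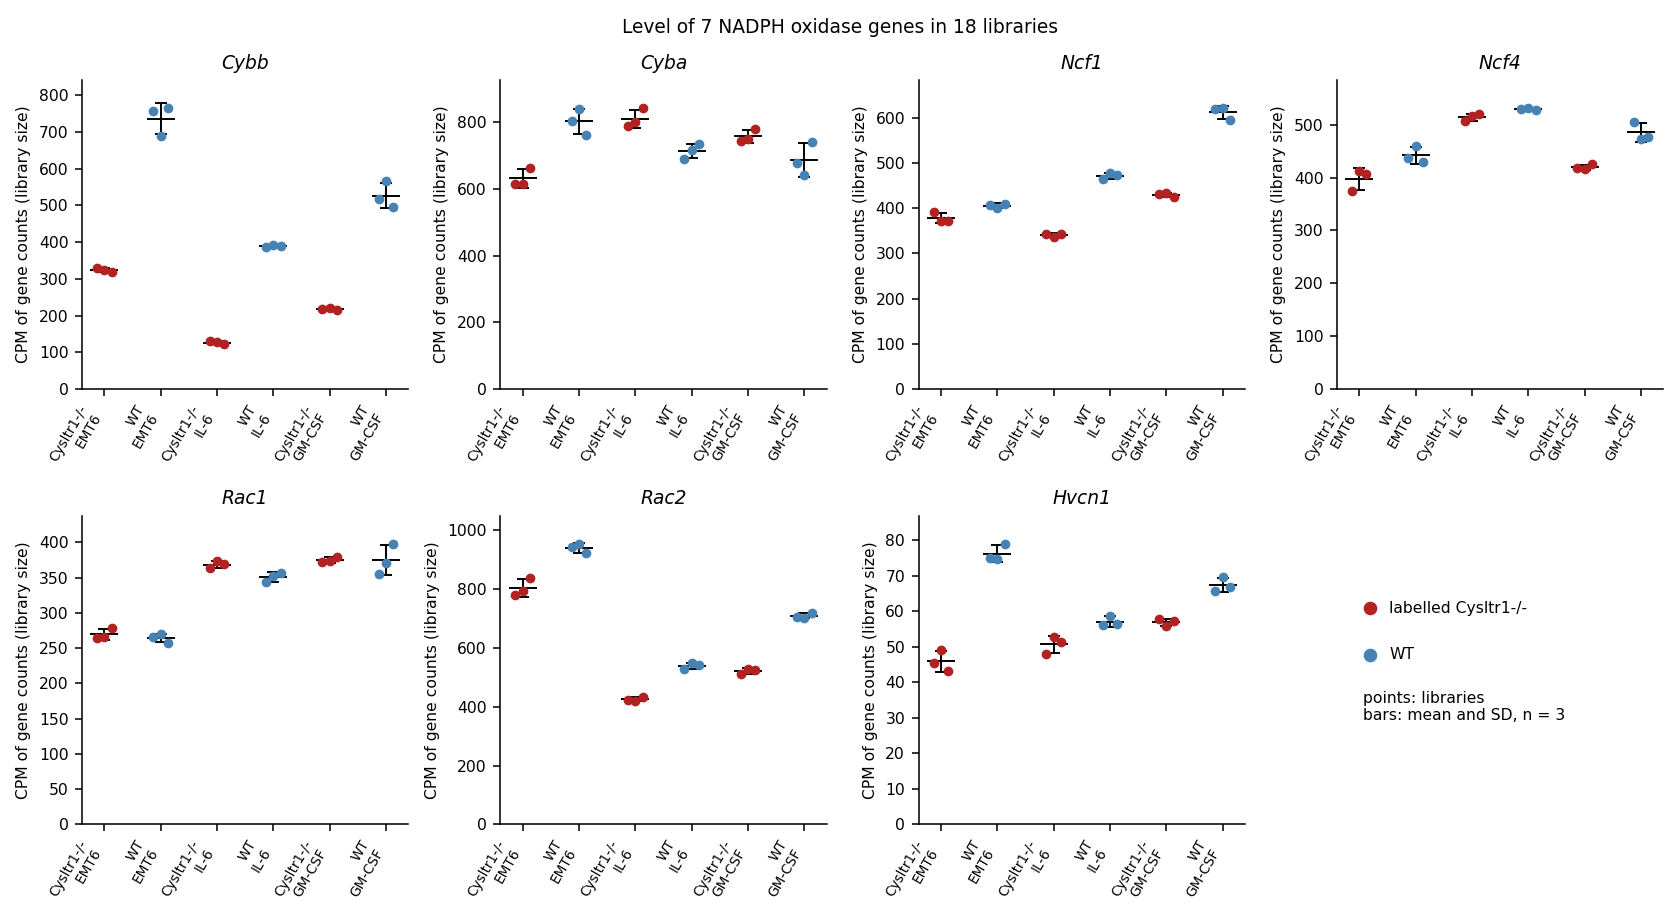
CPM of each of the 7 genes (vertical axes, linear from 0, scaled by library size) in the 6 groups; points are libraries and bars the mean and SD of 3, red for labelled Cysltr1-/- and blue for WT. Cybb lies lower in labelled Cysltr1-/- than in WT libraries of each culture (126 to 323 against 389 to 736 CPM in group means), and Rac1 is lowest in EMT6 medium, whereas Rac2 is highest there on this scale.

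Cybb was the member that differed most by genotype. Its transcript was lower in libraries labelled Cysltr1-/- in each of the 3 cultures, by 2.69-fold with EMT6 medium, 3.40-fold with IL-6 and 2.64-fold with GM-CSF alone, while its membrane partner Cyba passed the test in 1 of the 3. The genotype differences of the other 5 genes were narrower. With EMT6 medium Cybb had 329.9, 323 and 317 CPM in labelled Cysltr1-/- libraries, against 757, 688 and 764 CPM in WT libraries. With IL-6 it had 131, 127 and 121 CPM in labelled Cysltr1-/- libraries, against 385, 392 and 389 CPM in WT libraries. For GM-CSF alone the values were 217, 219.7 and 215 CPM in labelled Cysltr1-/- libraries, against 519, 565 and 496 CPM in WT libraries. The genotypes did not overlap in any culture, and all 9 labelled Cysltr1-/- libraries lay below all 9 WT libraries. The log2 fold changes, labelled Cysltr1-/- over WT, were -1.43 ± 0.054 (adjusted p = 7.17e-25), -1.77 ± 0.054 (adjusted p = 2.59e-28) and -1.40 ± 0.053 (adjusted p = 4.25e-25) in the same order. Averaged over cultures the change was -1.53 ± 0.031 (adjusted p = 2.3e-35), with 0.169% of the genes tested having a lower value, and it lay between -1.57 and -1.36 over the other scalings and tests.

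With EMT6 medium, Cyba, the p22phox gene, had 614, 616 and 664 CPM in labelled Cysltr1-/- libraries, against 804, 839.6 and 762 CPM in WT libraries. With IL-6 there were 789.6, 800.1 and 841 CPM in labelled Cysltr1-/- libraries, against 690.0, 717 and 734 CPM in WT libraries. With GM-CSF alone there were 745, 748 and 778 CPM in labelled Cysltr1-/- libraries, against 677, 640.0 and 741 CPM in WT libraries. On this scale the labelled Cysltr1-/- libraries were all below WT with EMT6 medium and all above WT in the other cultures. In the TMM fit Cyba was lower with EMT6 medium, at -0.58 ± 0.05 (adjusted p = 4.41e-13). It did not pass with IL-6, at 0.036 ± 0.049 (adjusted p = 0.613) with a 95% interval of -0.06 to 0.13, or with GM-CSF alone, at 0.022 ± 0.049 (adjusted p = 0.808) with a 95% interval of -0.074 to 0.12. With library sizes alone these last contrasts were 0.18 and 0.14, and both passed as higher in labelled Cysltr1-/- libraries.

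The ratio of Cybb to Cyba counts within a library needs no scaling between libraries. It averaged 0.513 ± 0.031 in labelled Cysltr1-/- and 0.921 ± 0.093 in WT libraries with EMT6 medium, 0.156 ± 0.011 and 0.545 ± 0.014 with IL-6, and 0.287 ± 0.0094 and 0.773 ± 0.107 with GM-CSF alone (SD, n = 3 each). No labelled Cysltr1-/- library reached the WT range of its culture. The mean log2 difference, labelled Cysltr1-/- minus WT, was -1.35 (two-sided exact permutation test within cultures, p = 0.00025, the smallest its 8000 arrangements can give, adjusted p = 0.0015 over 12 ratio tests). It held the same sign in every culture, at -0.84, -1.80 and -1.42.

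With EMT6 medium, Ncf1, which encodes the organizer p47phox, had 391, 372 and 372 CPM in labelled Cysltr1-/- libraries, against 406, 399.6 and 409.8 CPM in WT libraries. Corresponding IL-6 values were 342, 335 and 343 CPM in labelled Cysltr1-/- libraries, against 463, 477 and 472 CPM in WT libraries. GM-CSF alone gave 431, 433 and 425 CPM in labelled Cysltr1-/- libraries, against 619, 620.5 and 594 CPM in WT libraries. It was lower in labelled Cysltr1-/- libraries of every culture without overlap, and the log2 fold change was -0.34 ± 0.046 with EMT6 medium, -0.62 ± 0.045 with IL-6 and -0.63 ± 0.045 with GM-CSF alone (adjusted p = 8.16e-08, 4.04e-15 and 8.86e-16).

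With EMT6 medium, Ncf4, the gene of the phosphoinositide-binding subunit p40phox, had 374, 413 and 407 CPM in labelled Cysltr1-/- libraries, against 437, 460.3 and 429 CPM in WT libraries. IL-6 gave 507, 516 and 520.3 CPM in labelled Cysltr1-/- libraries, against 529, 531 and 528 CPM in WT libraries. In GM-CSF alone it had 418, 416 and 425 CPM in labelled Cysltr1-/- libraries, against 505, 473 and 477 CPM in WT libraries. Labelled Cysltr1-/- lay below WT in each culture, with log2 fold changes of -0.39 ± 0.048 with EMT6 medium, -0.19 ± 0.047 with IL-6 and -0.33 ± 0.047 with GM-CSF alone (adjusted p = 6.57e-09, 0.00141 and 1.58e-07). The IL-6 difference was -0.041 with library sizes alone (adjusted p = 0.458).

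Of the GTPase genes, Rac2 had the wider genotype difference in every culture. In EMT6 medium Rac2 had 779, 794 and 837 CPM in labelled Cysltr1-/- libraries, against 944, 954 and 922 CPM in WT libraries. IL-6 gave 424, 420.2 and 433 CPM in labelled Cysltr1-/- libraries, against 529, 548 and 541 CPM in WT libraries. With GM-CSF alone Rac2 was at 511, 528 and 525 CPM in labelled Cysltr1-/- libraries, against 704, 703 and 719 CPM in WT libraries. Every labelled Cysltr1-/- library was below the WT libraries of its culture, and the log2 fold changes were -0.47 ± 0.045 with EMT6 medium, -0.49 ± 0.045 with IL-6 and -0.56 ± 0.045 with GM-CSF alone (adjusted p = 1.55e-11, 3.71e-12 and 2.55e-14).

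With EMT6 medium, Rac1 had 265, 265 and 278 CPM in labelled Cysltr1-/- libraries, against 265, 269 and 258 CPM in WT libraries. Its IL-6 values were 364, 373 and 369 CPM in labelled Cysltr1-/- libraries, against 343, 352 and 357 CPM in WT libraries. In GM-CSF alone it had 372, 373 and 379 CPM in labelled Cysltr1-/- libraries, against 355, 371 and 398 CPM in WT libraries. The genotypes overlapped on this scale with EMT6 medium and GM-CSF alone. In the TMM fit Rac1 was lower, at -0.21 ± 0.047 (adjusted p = 0.000292) with EMT6 medium and -0.12 ± 0.046 (adjusted p = 0.0423) with GM-CSF alone, and stood at -0.076 ± 0.046 (adjusted p = 0.213) with IL-6. With library sizes alone the differences were 0.03, -0.00039 and 0.071 in that order, none of them called. The GM-CSF call was also lost with DESeq2 size factors (adjusted p = 0.162), by DESeq2's Wald test (adjusted p = 0.0786), with a filter that keeps genes of a mean of 5 CPM in some group (the 5 CPM filter, adjusted p = 0.0799) and with only the groups compared (adjusted p = 0.14). It was lost at -0.035 without the filter (adjusted p = 0.764) and at -0.06 after background subtraction (adjusted p = 0.297). It was lost too when any one of 8 libraries was left out (labelled Cysltr1-/- GM-CSF replicate 1 or 2, any labelled Cysltr1-/- IL-6 library, WT GM-CSF replicate 3, or WT IL-6 replicate 1 or 3), over a range of -0.15 to -0.087.

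With EMT6 medium, Hvcn1, the proton channel gene, had 45.5, 49.1 and 43.1 CPM in labelled Cysltr1-/- libraries, against 75.0, 74.6 and 79.0 CPM in WT libraries. With IL-6 it had 48.0, 52.7 and 51.4 CPM in labelled Cysltr1-/- libraries, against 56.0, 58.8 and 56.5 CPM in WT libraries. GM-CSF alone gave 57.7, 55.7 and 57.3 CPM in labelled Cysltr1-/- libraries, against 65.7, 69.6 and 67.0 CPM in WT libraries. The gap was widest with EMT6 medium, at -0.97 ± 0.06 (adjusted p = 2.61e-17), against -0.32 ± 0.054 (adjusted p = 7.4e-06) with IL-6 and -0.36 ± 0.054 (adjusted p = 3.59e-07) with GM-CSF alone.

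Counted together, 7 of 7 members were called lower in labelled Cysltr1-/- libraries with EMT6 medium, 5 of 7 with IL-6 and 6 of 7 with GM-CSF alone, and 0 were called higher. The GM-CSF count of members called lower was 5 under each of the 7 other scalings, filters and fits in which Rac1 lost its call, and with library sizes alone Cyba was called higher there. Of all genes 32.3%, 12.1% and 10.1% were called higher in these cultures. Those called lower were 19.8%, 18.4% and 17.2% of all genes, and 45.8%, 41.8% and 37.9% of the 11275 genes with a mean of 5 CPM or more. Averaged over cultures 7 of 7 were lower, with a median log2 fold change of -0.51, beside 24.6% of all genes tested (median 0.15, with 29.3% called higher) and 54.7% of genes of 5 CPM or more (median -0.12). With library sizes alone 5 of 7 were called lower, and neither Rac1, at 0.034, nor Cyba, at -0.0062 (adjusted p = 0.849), was called. This scaling called 3425 of 28334 genes lower and 13762 higher. Without the EMT6 medium libraries, a choice made after the values were seen, 6 of 7 members were called lower and Cyba stood at 0.047 (adjusted p = 0.166). There 6028 of 21615 genes were called lower and 4993 higher.

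Markers of several cell types moved with the genotype. All 11 neutrophil markers were lower in labelled Cysltr1-/- libraries averaged over cultures, with a median log2 fold change of -1.30. With EMT6 medium 7 were lower and 2 higher (median -0.39), while Cybb stood at -1.43, and with IL-6 and with GM-CSF alone 11 of 11 were lower (median -1.76 each). Their summed level was 2075 to 2462 CPM in labelled Cysltr1-/- and 2671 to 3043 CPM in WT libraries with EMT6 medium, 2473 to 2511 and 5987 to 6017 CPM with IL-6, and 4689 to 4874 and 10010.3 to 11281 CPM with GM-CSF alone. Of the 10 macrophage and monocyte markers 7 were lower and 1 higher averaged over cultures (median -0.41), and 5 lower and 3 higher with EMT6 medium (median -0.043). They summed to 1460.3 to 1651 CPM in labelled Cysltr1-/- and 2085 to 2177 CPM in WT libraries with EMT6 medium, 2422 to 2478 and 2886 to 2959 CPM with IL-6, and 2146 to 2186 and 2560.3 to 2719.8 CPM with GM-CSF alone. Of the 6 eosinophil markers 4 were lower and 0 higher, at 146 to 162 and 489.9 to 569.5 CPM in sum with GM-CSF alone. The 4 B cell markers were lower in every culture (median -0.59 averaged), and the 4 erythroid markers were higher averaged over cultures (median 1.07), with sums of at most 259.9 and 11.2 CPM in any library. No marker of these lists was at 0 counts throughout a group. Their part in the results was not tested, and in these whole cultures fewer cells of a type and less RNA per cell cannot be told apart.

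**Figure D2:**
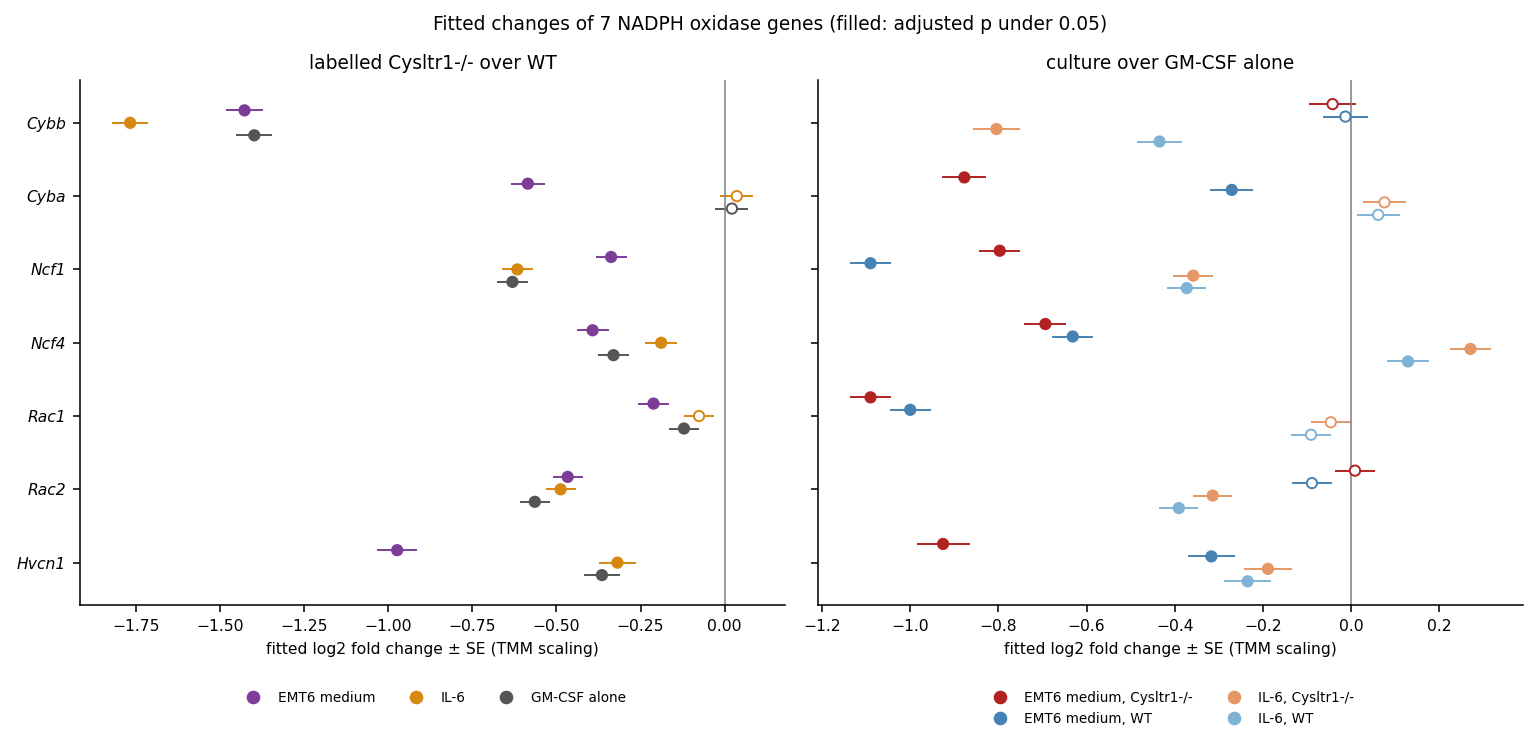
Fitted log2 fold changes with SE (horizontal axes, TMM scaling) of the 7 genes for labelled Cysltr1-/- over WT in each culture (left) and for EMT6 medium or IL-6 over GM-CSF alone in each genotype (right); filled points passed an adjusted p of 0.05. Cybb stands at -1.43, -1.77 and -1.40 in the left panel, and in the right panel the EMT6 medium positions of Cybb, Cyba, Rac2 and Hvcn1 change sign with the scaling in at least 1 genotype.

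IL-6 lowered Cybb, Ncf1, Rac2 and Hvcn1 and raised Ncf4 in both genotypes, while Cyba and Rac1 did not pass in either. Cybb fell to 126 ± 4.66 CPM with IL-6, against 217 ± 2.21 CPM with GM-CSF alone, in labelled Cysltr1-/- cultures, and to 389 ± 3.21, against 527 ± 35.2 CPM, in WT cultures (SD, n = 3 each). The log2 fold changes were -0.80 ± 0.054 (adjusted p = 6.23e-16) in labelled Cysltr1-/- and -0.43 ± 0.052 (adjusted p = 4.74e-09) in WT cultures. The difference between these 2 changes was -0.37 ± 0.075 (adjusted p = 0.000573), so by fold change, though not in CPM, IL-6 lowered Cybb more in the labelled Cysltr1-/- cultures. Cybb was the 1 of 7 members whose IL-6 change was called different between genotypes, beside 7.38% of all genes.

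Ncf1 and Ncf4 went opposite ways with IL-6. In labelled Cysltr1-/- cultures Ncf1 changed by -0.36 ± 0.045 (adjusted p = 3.95e-08) and Ncf4 by 0.27 ± 0.047 (adjusted p = 2.08e-05), and in WT cultures Ncf1 changed by -0.37 ± 0.045 (adjusted p = 5.64e-09) and Ncf4 by 0.13 ± 0.047 (adjusted p = 0.0394). The WT rise of Ncf4 is slight: it was called only in 6 of 18 fits that each left out 1 library (without labelled Cysltr1-/- EMT6 medium replicate 1 or IL-6 replicate 1, or without WT EMT6 medium replicate 2 or 3, IL-6 replicate 3 or GM-CSF replicate 1), with values of 0.11 to 0.16. Within libraries, the ratio of Ncf1 to Ncf4 counts was 0.661 ± 0.013 with IL-6 and 1.02 ± 0.021 with GM-CSF alone in labelled Cysltr1-/- cultures, and 0.889 ± 0.012 and 1.26 ± 0.044 in WT cultures (SD, n = 3 each). The 2 cultures did not overlap in either genotype, and the mean log2 difference was -0.57 (two-sided exact permutation test within genotypes, p = 0.005, the smallest its 400 arrangements can give, adjusted p = 0.00667).

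Rac2 fell with IL-6, at -0.31 ± 0.045 (adjusted p = 5.98e-07) in labelled Cysltr1-/- and -0.39 ± 0.045 (adjusted p = 1.6e-09) in WT cultures. Hvcn1 changed by -0.19 ± 0.055 (adjusted p = 0.0129) and -0.23 ± 0.053 (adjusted p = 0.000623), and the first of these was not called without labelled Cysltr1-/- GM-CSF replicate 1 or 3 or IL-6 replicate 1 (-0.21 to -0.16 over the libraries left out). Rac1 stood at -0.046 ± 0.046 (adjusted p = 0.628) in labelled Cysltr1-/- and -0.091 ± 0.046 (adjusted p = 0.178) in WT cultures, and Cyba at 0.076 ± 0.049 (adjusted p = 0.383) and 0.061 ± 0.049 (adjusted p = 0.47). In all, 1 of 7 members rose and 4 of 7 fell in each genotype. Among all genes 5.54% rose and 8.77% fell in labelled Cysltr1-/- cultures, and 10.4% rose and 11.3% fell in WT cultures, and among genes of 5 CPM or more the shares were 11.2% and 20.2%, and 23.1% and 23.7%. Of the 11 neutrophil markers 9 fell and 2 rose with IL-6 in each genotype, with median log2 fold changes of -1.02 and -1.03. Of the 10 macrophage and monocyte markers 3 fell and 5 rose in labelled Cysltr1-/- (median 0.21), and 5 fell and 4 rose in WT cultures (median -0.0038). Of the 6 dendritic cell markers 5 fell in each genotype (medians -0.52 and -0.41). Of the 6 eosinophil markers 2 fell in labelled Cysltr1-/- and 4 in WT cultures, and 0 rose. The part of these markers in the results was not tested.

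With EMT6 medium Rac1, Ncf1 and Ncf4 were lower than with GM-CSF alone in both genotypes under each of the 5 scalings, while the direction of Cybb and Rac2 depended on the scaling. Rac1 averaged 269 ± 7.68 CPM with EMT6 medium and 375 ± 4.13 CPM with GM-CSF alone in labelled Cysltr1-/- cultures, and 264 ± 5.98 and 375 ± 21.6 CPM in WT cultures (SD, n = 3 each). No EMT6 medium library reached the range of GM-CSF alone. The TMM log2 fold changes of Rac1 were -1.09 ± 0.047 (adjusted p = 1.93e-24) in labelled Cysltr1-/- and -1.0 ± 0.047 (adjusted p = 3.53e-23) in WT cultures, and -0.47 and -0.50 with library sizes alone.

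Both cytosolic subunit genes were also lower. Ncf1 changed by -0.80 ± 0.046 (adjusted p = 6.51e-20) in labelled Cysltr1-/- and -1.09 ± 0.046 (adjusted p = 6.42e-25) in WT cultures, or by -0.18 and -0.59 with library sizes alone. Ncf4 changed by -0.69 ± 0.048 (adjusted p = 3.1e-17) and -0.63 ± 0.047 (adjusted p = 5.5e-16), or by -0.076 (adjusted p = 0.0878) and -0.13 with library sizes alone.

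Cybb did not pass in the TMM fit, at -0.042 ± 0.054 (adjusted p = 0.46) in labelled Cysltr1-/- and -0.013 ± 0.052 (adjusted p = 0.821) in WT cultures. It came out higher, at 0.58 and 0.49, with library sizes alone, and lower, at -0.31 and -0.15, with the size factors of DESeq2. Rac2 likewise stood at 0.009 ± 0.045 (adjusted p = 0.853) and -0.089 ± 0.044 (adjusted p = 0.0635) with TMM, at 0.63 and 0.41 with library sizes and at -0.26 and -0.23 with DESeq2 size factors. No direction is therefore given for these 2 genes. Both ranked high among expressed genes but not among all genes tested. In the TMM fit 73.5% and 77.7% of genes of 5 CPM or more had a lower EMT6 medium change than Cybb in labelled Cysltr1-/- and WT cultures, and 75.2% and 74.8% a lower one than Rac2. Over all genes tested these shares were 37.8% and 41.4% for Cybb, and 38.8% and 39.7% for Rac2.

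Cyba and Hvcn1 fell with EMT6 medium in labelled Cysltr1-/- cultures under each scaling. The TMM values there were -0.88 ± 0.05 (adjusted p = 3.63e-20) for Cyba and -0.93 ± 0.06 (adjusted p = 4.18e-18) for Hvcn1, and those with library sizes alone were -0.26 and -0.31. In WT cultures the TMM values were -0.27 ± 0.049 (adjusted p = 4.59e-06) and -0.32 ± 0.054 (adjusted p = 1.52e-06), and library sizes alone turned them to 0.23 and 0.18. Both WT calls were also lost with the 5 CPM filter, at -0.0022 (adjusted p = 0.966) for Cyba and -0.048 (adjusted p = 0.344) for Hvcn1, and after background subtraction, at -0.0072 (adjusted p = 0.892) and -0.069 (adjusted p = 0.203). The genotypes differed in these changes, with interaction terms of -0.61 ± 0.07 (adjusted p = 2.21e-09) for Cyba and -0.61 ± 0.081 (adjusted p = 6.84e-08) for Hvcn1, and both differences kept their sign and their call under every alternative run. Ncf1 differed the other way, at 0.29 ± 0.064 (adjusted p = 0.000392), a smaller fall in labelled Cysltr1-/- cultures. That call was lost with DESeq2 size factors (0.17) and without the filter on low counts (0.061), and without WT GM-CSF replicate 2 or labelled Cysltr1-/- GM-CSF replicate 1 or 2 (0.18 to 0.31 over the libraries left out). These 3 of 7 members stand beside 25.6% of all genes called.

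**Figure D3:**
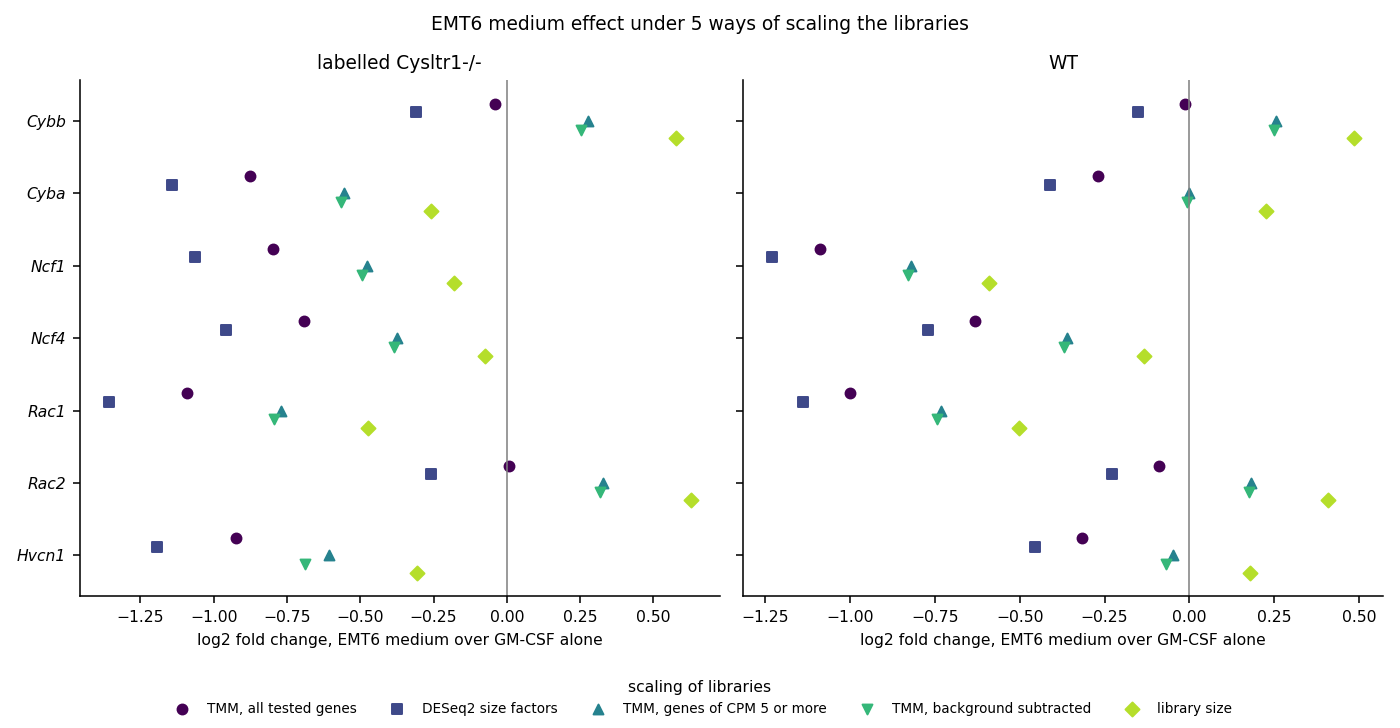
Log2 fold change of EMT6 medium over GM-CSF alone (horizontal axes) of the 7 genes in labelled Cysltr1-/- (left) and WT cultures (right) under 5 scalings of the libraries, a symbol each. Rac1, Ncf1 and Ncf4 stay below 0 in both panels, from -1.36 to -0.076, whereas Cybb and Rac2 lie on both sides of 0 in both panels and Cyba and Hvcn1 in WT cultures.

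In the TMM fit 5 of 7 members fell and 0 rose with EMT6 medium in each genotype. With library sizes alone 4 fell and 2 rose in labelled Cysltr1-/- cultures, and 3 fell and 4 rose in WT cultures. Of 28334 genes this scaling called 5560 lower and 19219 higher in labelled Cysltr1-/-, and 6076 and 17332 in WT cultures. With the 5 CPM filter, and after background subtraction, 5 fell and 2 rose in labelled Cysltr1-/- cultures, and 3 fell and 2 rose in WT cultures. With the filter 6586 and 6940 of 14441 genes fell in the same order, and 6328 and 5671 rose. After subtraction 9230 and 8836 of 22495 genes fell, and 9586 and 8496 rose. With DESeq2 size factors 7 members fell in each genotype, beside 10667 of 28334 genes in labelled Cysltr1-/- and 10609 in WT cultures. In the TMM fit 54.3% of all genes rose and 32.9% fell in labelled Cysltr1-/- cultures, and 46.8% rose and 34.5% fell in WT cultures. Of genes of 5 CPM or more 69.3% and 71.9% fell, so the members' TMM share of 5 in 7 was near that of expressed genes. The median log2 fold change in labelled Cysltr1-/- and WT cultures was 0.83 and 0.49 over all genes, and -0.62 and -0.57 over genes of 5 CPM or more. Set against IL-6 in place of GM-CSF alone, EMT6 medium libraries had more Cybb, at 0.76 ± 0.055 (adjusted p = 1.2e-16) in labelled Cysltr1-/- and 0.42 ± 0.052 (adjusted p = 1.23e-09) in WT cultures, and more Rac2, at 0.32 ± 0.045 (adjusted p = 2.01e-08) and 0.30 ± 0.045 (adjusted p = 8.71e-08). All alternatives kept these directions, but Rac2 in labelled Cysltr1-/- cultures was not called with DESeq2 size factors (0.10), without the filter (0.06), or without any 1 of the labelled Cysltr1-/- GM-CSF libraries or EMT6 medium replicate 3 (lowest 0.081). Rac1 was lower than with IL-6, at -1.04 ± 0.047 (adjusted p = 1.02e-23) in labelled Cysltr1-/- and -0.91 ± 0.046 (adjusted p = 1.04e-21) in WT cultures, and so was Ncf4, at -0.96 ± 0.048 (adjusted p = 3.15e-22) and -0.76 ± 0.047 (adjusted p = 9.59e-19). Against IL-6, 2 of 7 members were higher and 5 of 7 lower in labelled Cysltr1-/- cultures (53.8% and 32.4% of all genes), and 2 and 4 of 7 in WT cultures (48.1% and 33.8%). The members' median log2 fold changes were -0.74 and -0.33 in that order. Those of genes of 5 CPM or more were -0.58 and -0.57, and those of all genes 0.77 and 0.53. With library sizes alone 3 members were higher and 4 lower in labelled Cysltr1-/- cultures, and 4 higher and 3 lower in WT cultures. Of 28334 genes 19219 were higher and 5429 lower in labelled Cysltr1-/-, and 17839 and 6005 in WT cultures. With the 5 CPM filter, and after background subtraction, 3 members were higher and 3 lower in WT cultures. The filter called 5920 of 14441 genes higher and 6636 lower there, and subtraction 8878 and 8760 of 22495. The comparisons of EMT6 medium and of IL-6 with GM-CSF share the GM-CSF libraries. The 11 neutrophil markers fell with EMT6 medium in WT cultures (11 of 11, median log2 fold change -2.99) and 10 of 11 fell and 1 rose in labelled Cysltr1-/- cultures (median -1.96). Of the 10 macrophage and monocyte markers 6 fell in labelled Cysltr1-/- (median -0.84) and 8 in WT cultures (median -1.63), with 2 higher in each. Of the 6 dendritic cell markers 5 fell and 1 rose in each genotype (medians -2.39 and -1.96), and the 4 B cell markers rose in both (1.02 and 1.09). The eosinophil markers summed to 737 to 833 CPM with EMT6 medium, against 146 to 162 CPM with GM-CSF alone, in labelled Cysltr1-/- cultures, and to 1011 to 1104 CPM, against 489.9 to 569.5 CPM, in WT cultures. They did not move together: in the TMM fit 3 of the 6 rose and 2 fell in labelled Cysltr1-/- cultures (median 0.44). In WT cultures 3 rose and 3 fell (median -0.24). Reads in no annotated feature were higher with EMT6 medium, as given above. The part of the markers was not tested. Subtracting from the counts a background set by the reads in no feature gave, for each member in each genotype, a value between its TMM and its library-size value.

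The 2 Rac genes separated most clearly between cultures as a ratio within libraries. Rac2 counts were 2.94, 2.99 and 3.01 times those of Rac1 with EMT6 medium, 1.17, 1.13 and 1.17 times with IL-6 and 1.37, 1.42 and 1.38 times with GM-CSF alone in labelled Cysltr1-/- libraries. In WT libraries the ratios were 3.56, 3.54 and 3.58 with EMT6 medium, 1.54, 1.55 and 1.52 with IL-6 and 1.98, 1.90 and 1.81 with GM-CSF alone. Every EMT6 medium library was above every library of the other cultures, and within each culture every labelled Cysltr1-/- library was below every WT library. The mean log2 difference was 1.01 for EMT6 medium minus GM-CSF alone, 1.29 for EMT6 medium minus IL-6 and -0.28 for IL-6 minus GM-CSF alone (two-sided exact permutation tests within genotypes, p = 0.005 each, the smallest possible, adjusted p = 0.00667). For labelled Cysltr1-/- minus WT it was -0.37 (exact permutation test within cultures, p = 0.00025, the smallest possible, adjusted p = 0.0015). Whether Rac2 rose or Rac1 fell cannot be read from a ratio.

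Cybb over Cyba also moved with the culture. The mean log2 difference was 0.55 for EMT6 medium minus GM-CSF alone (exact permutation p = 0.01, adjusted p = 0.012), 1.23 for EMT6 medium minus IL-6 and -0.69 for IL-6 minus GM-CSF alone (exact permutation p = 0.005 each, adjusted p = 0.00667). Ncf1 over Ncf4 averaged 0.954 ± 0.08 in labelled Cysltr1-/- and 0.917 ± 0.045 in WT libraries with EMT6 medium (SD, n = 3 each), where the genotypes overlapped. Its log2 difference was -0.28 for EMT6 medium minus GM-CSF alone and 0.28 for EMT6 medium minus IL-6 (exact permutation p = 0.02 each, adjusted p = 0.02). For labelled Cysltr1-/- minus WT it was -0.22 (exact permutation p = 0.0045, adjusted p = 0.00667), made of -0.43 with IL-6 and -0.30 with GM-CSF alone against 0.055 with EMT6 medium.

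**Figure D4:**
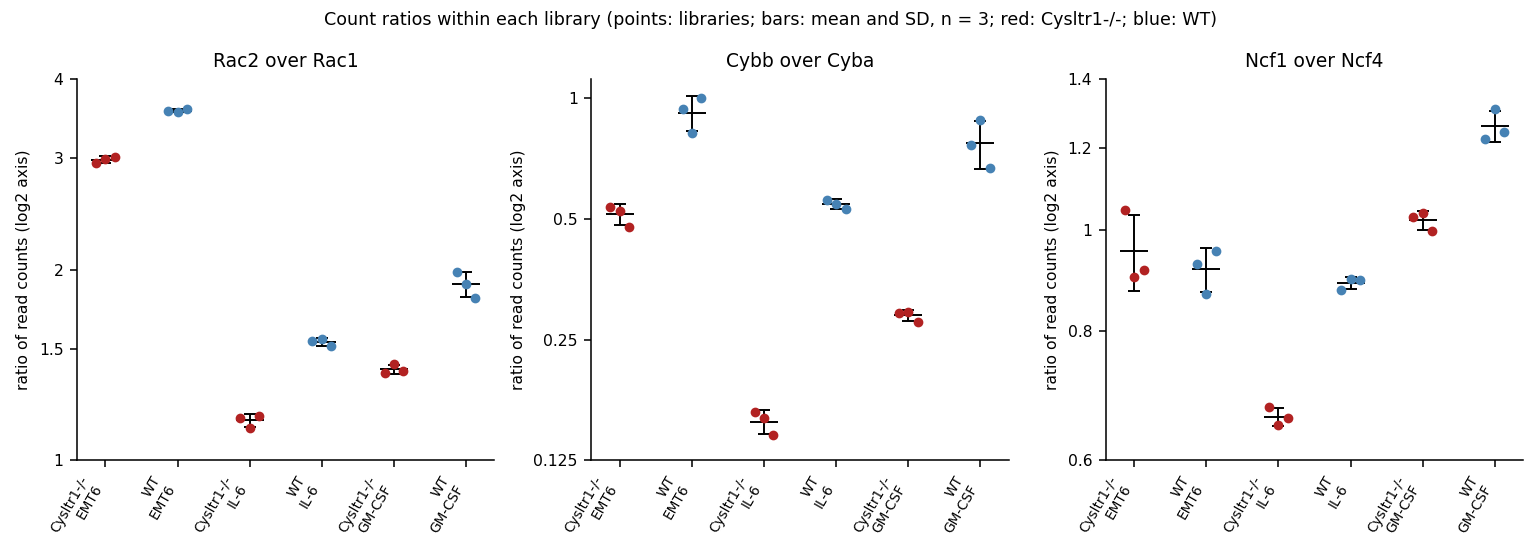
Ratios of read counts within each library (vertical axes, log2 scaled) for Rac2 over Rac1, Cybb over Cyba and Ncf1 over Ncf4 in the 6 groups; points are libraries and bars the mean and SD of 3. Rac2 over Rac1 lies at 2.94 to 3.58 with EMT6 medium and at 1.13 to 1.98 in the other cultures, and Cybb over Cyba lies lower in labelled Cysltr1-/- than in WT libraries of each culture.

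Per kilobase of exon, Cyba was the most abundant member and Hvcn1 the least in every group. Cyba averaged 608 ± 27.0 CPM per kb in labelled Cysltr1-/- and 772 ± 37.1 in WT cultures with EMT6 medium, and 729 ± 17.7 and 660.3 ± 49.0 with GM-CSF alone (SD, n = 3 each). Hvcn1 averaged 12.9 ± 0.853 and 21.4 ± 0.685 CPM per kb with EMT6 medium, and 16.0 ± 0.292 and 18.9 ± 0.569 with GM-CSF alone. Cybb, for which the annotated exons add up to 5.81 kb, came to 55.7 ± 1.08 and 127 ± 7.23 CPM per kb with EMT6 medium, 21.8 ± 0.803 and 66.9 ± 0.553 with IL-6 and 37.4 ± 0.381 and 90.7 ± 6.06 with GM-CSF alone. It ranked below Rac1 in all labelled Cysltr1-/- groups and in the WT IL-6 group, and above it in the other 2 WT groups. The lengths join all annotated transcripts, so genes with long alternative ends are understated.

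The order of the group levels of Cybb, in CPM by library size, was WT EMT6 medium, WT GM-CSF, WT IL-6, labelled Cysltr1-/- EMT6 medium, labelled Cysltr1-/- GM-CSF and labelled Cysltr1-/- IL-6, with no overlap between neighbours. Rac2, Ncf1 and Ncf4 also had 6 groups whose neighbours did not overlap, each in another order: Rac2 ran from WT EMT6 medium down to labelled Cysltr1-/- IL-6, Ncf1 from WT GM-CSF to labelled Cysltr1-/- IL-6, and Ncf4 from WT IL-6 to labelled Cysltr1-/- EMT6 medium. Neighbours overlapped at 4 of 5 steps for Cyba, at 3 of 5 for Rac1 and at 2 of 5 for Hvcn1.

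Members were compared with each other and with the other genes of at least 10 CPM by the root mean square difference of their log2 levels over the 6 group means (TMM scaling, each gene centred on its own mean, 9520 genes searched). Cyba and Ncf4 were the closest pair, at 0.16, followed by Ncf4 and Rac1 at 0.18. Cybb stood farthest off, at 0.54 from Rac2 and 0.96 from Rac1. The nearest genes to Cybb were Chil1 (0.25), a chitinase-like protein, Hp (0.27), which encodes haptoglobin, and Ear6 (0.29), an eosinophil-associated ribonuclease of a family of near-identical copies. Rac2 was nearest to Rad18 (0.075), Hcst (0.081) and Tyrobp (0.081), where the last encode the immune adaptor proteins DAP10 and DAP12. The other members had their nearest gene at 0.033 to 0.063: Tmem106c for Cyba, Arhgap11a for Ncf1, Eml2 for Ncf4, Rnaseh2b for Rac1 and Sbk1 for Hvcn1. These are descriptions over 6 groups of mixed cells.

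Genes that act around the oxidase were followed as lists. Of 18 genes for its activation, assembly or chaperoning, 17 fell and 0 rose in labelled Cysltr1-/- libraries averaged over cultures (median log2 fold change -0.33), a count of 11 lower and 3 higher with library sizes alone. Those with the smallest p were the formyl peptide receptor genes Fpr1 (-0.93 ± 0.034) and Fpr2 (-0.80 ± 0.032), Pik3r5, a regulatory subunit of phosphoinositide 3-kinase gamma (-0.59 ± 0.032), and Arhgdib, which holds Rac GTPases in the cytosol (-0.48 ± 0.026). The shares called lower were 24.6% of all genes and 54.7% of genes of 5 CPM or more. With EMT6 medium in WT cultures 14 of the 18 fell and 1 rose (median -0.82), where 71.9% of genes of 5 CPM or more fell (median -0.57), so the count was near that of expressed genes. Among those that fell were Pik3cg, the catalytic subunit of that kinase (-3.27 ± 0.065), Pak1, a Rac-activated kinase (-2.33 ± 0.063), and Dock2, an exchange factor for Rac (-2.10 ± 0.056), and 4 of the 18 rose with library sizes alone. IL-6 in WT cultures lowered 8 and raised 5 of the 18, beside 23.7% and 23.1% of genes of 5 CPM or more. The median was -0.12, beside -0.032 over all genes. Fpr2 was at -0.45 ± 0.053, Fpr1 at -0.34 ± 0.052 and the Rac exchange factor Vav3 at 0.36 ± 0.059.

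Of 8 genes that supply NADPH, 7 fell in labelled Cysltr1-/- libraries averaged over cultures and 0 rose, beside 54.7% of genes of 5 CPM or more called lower. Pgd and Tkt, of the pentose phosphate pathway, changed by -0.56 ± 0.026 and -0.48 ± 0.025, and Idh1, the cytosolic isocitrate dehydrogenase, by -0.53 ± 0.028. IL-6 in WT cultures lowered 7 of the 8, beside 23.7% of genes of 5 CPM or more, with Pgd at -0.48 ± 0.044. EMT6 medium in WT cultures lowered 7 and raised 1, beside 71.9% of genes of 5 CPM or more lowered, with Idh1 at -2.58 ± 0.049 and Pgd at -1.94 ± 0.046, and 2 were raised with library sizes alone. Of 13 genes that remove oxidants, 13 fell by genotype (median -0.17, beside -0.12 and 54.7% lower among genes of 5 CPM or more), but 6 with library sizes alone, and 7 fell and 2 rose without the EMT6 medium libraries. With EMT6 medium in WT cultures 5 of the 13 rose and 5 fell, beside 46.8% and 34.5% of all genes, or 10 and 3 with library sizes alone. The TMM median there was -0.054, beside a median of -0.57 and 71.9% lower among genes of 5 CPM or more. In labelled Cysltr1-/- cultures 3 rose and 9 fell (median -0.54), beside 54.3% and 32.9% of all genes. Of genes of 5 CPM or more 69.3% fell there (median -0.62), so the count of falls was near that of expressed genes. The interaction term was lower for 8 of the 13 and higher for 1, beside 25.6% of all genes called in either direction. In WT cultures Sod2, the mitochondrial superoxide dismutase, was at 2.09 ± 0.051 and Gpx1, a glutathione peroxidase, at -1.86 ± 0.05.

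Of 5 relatives of Rac, 4 fell in labelled Cysltr1-/- libraries averaged over cultures, Rhog (-0.58 ± 0.035), Rhoh (-0.33 ± 0.035), Rhoa (-0.24 ± 0.026) and Cdc42 (-0.21 ± 0.026), and Rac3 did not pass (0.081 ± 0.13), beside 54.7% of genes of 5 CPM or more called lower. With EMT6 medium the 5 fell in WT cultures, at -0.13 ± 0.06 for Rhog to -1.71 ± 0.23 for Rac3, or 3 fell and 2 rose with library sizes alone, and 71.9% of genes of 5 CPM or more fell. Of 8 transcription factors known to act at oxidase genes, 8 fell by genotype (54.7% of genes of 5 CPM or more), but 3 with library sizes alone. Cebpe, needed for late granulocyte maturation, was at -0.62 ± 0.037, Cebpa at -0.30 ± 0.03, Irf8 at -0.22 ± 0.027, Irf1 at -0.21 ± 0.032 and Spi1, which encodes PU.1, at -0.20 ± 0.027. IL-6 lowered Cebpe, Cebpa and Spi1 in WT cultures, at -0.71 ± 0.054, -0.36 ± 0.049 and -0.14 ± 0.046. These were 3 of the 8, and 0 rose, beside 11.3% of all genes lowered and 10.4% raised. Of genes of 5 CPM or more 23.7% were lowered and 23.1% raised. EMT6 medium in WT cultures lowered 4 of the 8 and raised 4, beside 34.5% and 46.8% of all genes. Of genes of 5 CPM or more 71.9% were lowered. The factors lowered were Cebpe (-2.51 ± 0.063), Cebpa (-2.0 ± 0.053), Irf2 (-0.76 ± 0.06) and Spi1 (-0.50 ± 0.047). Among those raised were Cebpb (0.51 ± 0.045), Irf8 (0.19 ± 0.046) and Irf1 (0.18 ± 0.055). With DESeq2 size factors 2 of the 8 were raised.

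Genes of the other NADPH oxidases were close to absent. The 9 of the list (Nox1, Nox3, Nox4, Noxo1, Noxa1, Duox1, Duox2, Duoxa1 and Duoxa2) summed to 20.6 to 22.7 CPM in labelled Cysltr1-/- and 10.2 to 11.4 CPM in WT libraries with EMT6 medium, and to 3.36 to 4.80 and 2.82 to 3.47 CPM with GM-CSF alone, whereas the 7 members summed to 2799 to 2919 and 3624 to 3688 CPM with EMT6 medium and to 2751 to 2805 and 3442 to 3492 CPM with GM-CSF alone. Of the 7 that passed the filter 5 rose and 1 fell with EMT6 medium in WT cultures, beside 46.8% and 34.5% of all genes. After the background of reads in no feature was subtracted 2 rose.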

How the data were processed

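Raw counts per gene were deposited by the authors, 1 file for each of 18 poly(A) RNA libraries. Per the submitters' processing notes, HISAT2 2.1.0 and HTSeq 0.13.5 were used on mm10; annotation and strand setting are not given in the sources used here. Symbols and exon lengths came from GENCODE M21, and promoter sequence from RefSeq (GRCm38.p6). Rows that name no gene stayed out of library sizes.

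Fold changes came from edgeR 4.0.16 (quasi-likelihood F test, TMM, filterByExpr, 28334 genes, 6 group means over all 18 libraries) in R 4.3.3, with Benjamini-Hochberg adjustment within each of 12 comparisons, and were tested on simulated data. Ratios of counts used exact permutation tests in Python 3.11.15. Alternatives were DESeq2 1.42.0 and its size factors, library sizes, other filters, background subtraction, only the groups compared, a replicate block and leaving out each library. A background is exon length times the density of reads in no feature. Depth of 9583728 to 31989342 counts per library limits low genes.

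Every member is named. Of each list the 4 genes of smallest p in 3 main comparisons may be named, plus any Rac relative, other oxidase or transcription factor, and the 3 genes of most similar pattern per member, of which some are given. Members, lists and motifs were chosen with earlier results of these data known.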

Additional observations from a re-analysis of the deposited data

Results flagged for a closer look

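The effect of a culture differed between genotypes for 4 members, by the interaction term of the edgeR fit. Of all genes 7.38% were called for IL-6 and 25.6% for EMT6 medium. With IL-6, the change of Cybb in labelled Cysltr1-/- cultures differed from that in WT cultures by -0.37 ± 0.075 (adjusted p = 0.000573). With EMT6 medium, the changes differed by -0.61 ± 0.070 for Cyba (adjusted p = 2.21e-09), by -0.61 ± 0.081 for Hvcn1 (adjusted p = 6.84e-08) and by 0.29 ± 0.064 for Ncf1 (adjusted p = 0.000392), labelled Cysltr1-/- minus WT. The Ncf1 call was lost with DESeq2 size factors (0.17), without the filter on low counts (0.061) and without labelled Cysltr1-/- GM-CSF replicate 1 or 2 or WT GM-CSF replicate 2. Reads in no annotated feature differ most between the genotypes in EMT6 medium, at 50.2% in labelled Cysltr1-/- and 36.2% in WT libraries, and their part was not tested for Ncf1 and Hvcn1 beyond the background subtraction, after which the differences were 0.33 and -0.62. Exons of Ncf1 and Hvcn1 also overlap genes of the other strand.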

How the results depend on the processing

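The genotype difference of Cybb, Ncf1, Rac2 and Hvcn1 kept its direction and call in each culture under all alternatives run. The replicate block changed no call of a member's fold change (74 of 74 compared). Same-numbered libraries of different groups deviated with correlations of -0.334 to 0.298 over 45 pairs (median 0.043), 8 of them over 0.1. Differently numbered ones had -0.262 to 0.368 over 90 pairs (median -0.0152), 17 of them over 0.1, so the numbers were not taken to pair libraries. Under the block, with sign flips, 3 ratio differences had an adjusted p of 0.0625: Cybb over Cyba, EMT6 medium minus GM-CSF alone (0.5463), and Ncf1 over Ncf4, EMT6 medium minus GM-CSF alone (-0.2812) and minus IL-6 (0.2846). The members whose IL-6 change differed by genotype numbered 2 in place of 1 with a filter at 5 CPM, with only the groups compared and without the EMT6 medium libraries (added after seeing the data). The filter called 1347 of 14441 genes higher and 1291 lower, and each other setting 1283 and 1492 of 21615. Members whose EMT6 medium change differed numbered 5 in place of 3 by DESeq2's Wald test and without the filter. The Wald test called 2179 of 28334 genes higher and 4733 lower, and the fit without the filter 1779 and 6041 of 47727. Directions that turned, on the log2 scale, were these. For EMT6 medium over GM-CSF in labelled Cysltr1-/- cultures, library sizes gave 0.58 for Cybb, the 5 CPM filter 0.28 for Cybb and background subtraction 0.25 for Cybb, and Rac2 was -0.26 with DESeq2 size factors, -0.26 by its Wald test, -0.27 without the filter and -0.12 with only the groups compared. In WT cultures library sizes gave 0.49 for Cybb, 0.23 for Cyba, 0.41 for Rac2, 0.18 for Hvcn1, the 5 CPM filter 0.26 for Cybb, 0.18 for Rac2, background subtraction 0.25 for Cybb, 0.17 for Rac2, and only the groups compared 0.058 for Cybb. For EMT6 medium over IL-6, library sizes gave 0.16 for Ncf1 in labelled Cysltr1-/- cultures and 0.17 for Cyba, 0.42 for Hvcn1 in WT cultures, where Hvcn1 was 0.20 with the 5 CPM filter and 0.14 after background subtraction. For labelled Cysltr1-/- over WT, library sizes turned Rac1 to 0.03 with EMT6 medium, 0.071 with IL-6 and 0.034 averaged, and Cyba averaged 0.047 without the EMT6 medium libraries. Leaving out 1 library at a time gave -0.24 to -0.013 for Rac2 with EMT6 medium in labelled Cysltr1-/- cultures and -0.24 to -0.079 in WT cultures, -0.18 to 0.030 for Cybb in WT and -0.27 to -0.064 in labelled Cysltr1-/- cultures, and -0.037 to 0.068 for Cyba, labelled Cysltr1-/- over WT, with GM-CSF alone. Cybb and Rac2 for EMT6 medium over GM-CSF in labelled Cysltr1-/- cultures, and Hvcn1 for EMT6 medium over IL-6 in WT cultures (-0.21 to -0.054), were each called lower when any of 8 libraries was left out: the labelled Cysltr1-/- EMT6 medium and GM-CSF libraries, WT EMT6 medium replicate 1 and WT GM-CSF replicate 2. Cybb in WT cultures was called lower without any of these but the last, and Rac2 in WT cultures without any library other than WT EMT6 medium replicates 2 and 3 and WT GM-CSF replicates 1 and 3. The causes were not tested.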
